A study of Mus musculus with 36 samples.

Results

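The genes described here are 10 stress-responsive genes, 8 heat-shock chaperones and 2 cold-inducible RNA-binding proteins, measured by RNA-sequencing in the anterior cingulate cortex (aCC) of mice. They were chosen by name, with earlier results of these data known, from the 52636 genes of the expression table. All 10 were found in it and passed the filter on low values. The table holds 36 libraries, 1 from each of 36 female mice aged between 8 and 11 weeks of the strain labelled C57BL/6NTac-Brd1. Genotype and treatment form 4 groups. WT mice given vehicle (saline) numbered 8, Brd1+/- mice given vehicle 9, WT mice given 10 mg/kg imipramine (IMN, a tricyclic antidepressant) 10 and Brd1+/- mice given the same dose of IMN 9. Brd1+/- mice carry a targeted deletion of exons of 1 allele of Brd1, a chromatin scaffold gene, and their WT controls came from the same litters. All 4 groups, the vehicle groups included, received injections on consecutive days and went through tail suspension, the open field and a forced swim before the brains were taken. What the swim itself does to these genes therefore cannot be told apart from the level common to all groups. The study reported that immobility in the swim differed between groups. It was longer in Brd1+/- than in WT mice given vehicle, and shorter in Brd1+/- mice given IMN than in those given vehicle. Differences in swimming thus cannot be told apart from genotype and treatment. The values are TPM, transcript abundances scaled for length and to the same total in each library, so the number of reads behind each value is unknown here.

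Heat-shock proteins are chaperones that hold or refold other proteins. Heat-shock factor 1 raises their transcription when unfolded proteins build up in the cytosol, and a separate pathway, the unfolded protein response, does so for the chaperones of the endoplasmic reticulum (ER). CIRBP and RBM3 behave the other way round, since mild cooling raises them and warming lowers them, and both bind mRNA and affect its stability and translation. Neurons express several of these chaperones constantly and at a high level.

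All 10 are annotated as protein-coding genes of GRCm38. On chromosome 17 lie Hspa1a (ENSMUSG00000091971) at chr17:34969190-34972156 (minus strand), Hspa1b (ENSMUSG00000090877) at chr17:34956436-34959238 (minus strand) and Hsp90ab1 (ENSMUSG00000023944) at chr17:45567775-45573271 (minus strand). The other chaperone genes are Hspa8 (ENSMUSG00000015656) at chr9:40800984-40810087 (plus strand), Hspa5 (ENSMUSG00000026864) at chr2:34771970-34777547 (plus strand), Hsp90aa1 (ENSMUSG00000021270) at chr12:110690605-110702728 (minus strand), Dnajb1 (ENSMUSG00000005483) at chr8:83608193-83612653 (plus strand) and Hsph1 (ENSMUSG00000029657) at chr5:149614287-149636376 (minus strand). The cold-inducible genes are Cirbp (ENSMUSG00000045193) at chr10:80165985-80172786 (plus strand) and Rbm3 (ENSMUSG00000031167) at chrX:8138975-8145880 (minus strand).

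Of the 10 members, 6 had a promoter window in the RefSeq table of build GRCm38.p6, which gives the 250 bases before the annotated start of a transcript. Hsph1, Dnajb1 and Cirbp each had a further window from another annotated start, which made 9 windows, and the further ones of Hsph1 and Cirbp are not shown. The windows of 5 of them are shown because they hold matches to an ER stress element, to a mild-cold element or to part of a heat-shock element. All of these matches also occur in windows of other genes, so they do not tell the families apart. Each window reads 5′ to 3′ on the strand of its gene. The windows lie at chr17:34972157-34972406 (minus strand) for Hspa1a, chr17:34959239-34959488 (minus strand) for Hspa1b, chr5:149636337-149636586 (minus strand) for Hsph1, chr2:34771840-34772089 (plus strand) for Hspa5 and chr10:80167589-80167838 (plus strand) for Cirbp. Capitals mark the fixed letters of the matches described after the sequences.
Hspa1a: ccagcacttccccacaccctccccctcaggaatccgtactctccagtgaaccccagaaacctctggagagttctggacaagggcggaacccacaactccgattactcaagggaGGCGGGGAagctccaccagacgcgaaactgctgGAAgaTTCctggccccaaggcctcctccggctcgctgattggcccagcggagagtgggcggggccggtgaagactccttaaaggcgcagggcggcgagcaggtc
Hspa1b: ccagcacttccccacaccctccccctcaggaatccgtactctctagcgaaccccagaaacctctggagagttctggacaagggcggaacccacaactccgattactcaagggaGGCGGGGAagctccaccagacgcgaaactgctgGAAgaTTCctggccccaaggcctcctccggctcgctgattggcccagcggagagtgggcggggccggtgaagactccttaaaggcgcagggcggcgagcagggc
Hsph1: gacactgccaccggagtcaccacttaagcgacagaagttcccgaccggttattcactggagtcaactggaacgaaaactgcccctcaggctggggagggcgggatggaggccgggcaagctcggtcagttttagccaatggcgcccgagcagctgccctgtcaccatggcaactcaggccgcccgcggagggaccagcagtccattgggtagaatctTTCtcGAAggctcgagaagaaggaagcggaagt
Hspa5: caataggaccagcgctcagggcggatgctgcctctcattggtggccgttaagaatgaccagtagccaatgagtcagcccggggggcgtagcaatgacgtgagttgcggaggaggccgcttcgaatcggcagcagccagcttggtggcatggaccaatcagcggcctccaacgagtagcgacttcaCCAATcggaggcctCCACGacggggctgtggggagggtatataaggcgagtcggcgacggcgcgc
Cirbp: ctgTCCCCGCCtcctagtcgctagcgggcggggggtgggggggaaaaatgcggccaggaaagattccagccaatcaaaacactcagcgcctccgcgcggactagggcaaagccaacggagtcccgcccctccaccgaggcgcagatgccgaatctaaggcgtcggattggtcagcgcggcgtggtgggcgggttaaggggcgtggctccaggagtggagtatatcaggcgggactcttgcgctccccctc

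The windows of Hspa1a and Hspa1b were identical at 247 of 250 bases. Both held the pair of heat-shock units GAANNTTC between bases -104 and -97 from the start, and Hsph1 held the opposite arrangement TTCNNGAA between bases -33 and -26. Counted from the other start of Hsph1, that arrangement lay between bases -54 and -47. Each of these 8-letter motifs reads the same on both strands, and they were found in 6.69% and 7.17% of all 32851 windows. The element with 3 units, GAANNTTCNNGAA on either strand, which contains both arrangements, occurred in 0.466% of all windows and in 0 of the 6 members' windows. Hspa5 held the ER stress element, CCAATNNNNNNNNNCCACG, between bases -65 and -47, and this element includes the shorter motif CCAAT. It was present in 37 of the 32851 windows, 0.113%, and in 6 of the 17 ER chaperone genes listed for comparison that had a window (Calr, Canx, Creld2, Dnajc3, Hsp90b1 and Pdia6). Cirbp held the mild-cold element TCCCCGCC between bases -247 and -240, which 4.64% of all windows held on either strand, those of Hspa1a and Hspa1b among them. The further window of Cirbp did not hold this element. The windows of Dnajb1 held none of these marked elements, and the letters of a window say nothing of whether a factor bound there.

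The targeted gene followed the labels. Brd1 was 26.4 ± 3.03 TPM (SD, n = 8) in WT vehicle, 16.8 ± 2.72 (n = 9) in Brd1+/- vehicle, 23.3 ± 3.43 (n = 10) in WT IMN and 16.8 ± 2.102 (n = 9) in Brd1+/- IMN, and its log2 fold change between the genotypes, pooled over treatments, was -0.54 ± 0.07 (SE, limma, adjusted p = 2.83e-05). Markers of cortex were present throughout, with a mean of 1116 TPM for Slc17a7, the glutamate transporter of excitatory neurons. The summed level of 10 oligodendrocyte markers, all of them detected, ranged from 192 to 2841 TPM in WT vehicle (median 421), from 240.2 to 1800.3 in Brd1+/- vehicle (603), from 233 to 3569.7 in WT IMN (984) and from 229.7 to 3445 in Brd1+/- IMN (750.4). A pair of libraries stood apart in makeup. WT vehicle 1 had the highest oligodendrocyte score of its group and the lowest immediate-early score. Brd1+/- vehicle 6 had the highest striatal and choroid plexus scores of all 36 libraries, with 3912 TPM summed over 6 choroid plexus markers against at most 40.4 in the other 3 groups. Results that rest on these libraries are also given without them. In bulk tissue, fewer cells of a type and less RNA per cell cannot be told apart.

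TPM is scaled to transcript length, so levels can be set against each other. The HSP90 genes and Hspa8 led. Hsp90ab1, the HSP90 beta gene that is always active, averaged 819.8 TPM over the 36 libraries, Hspa8, the constitutive HSC70 that folds new proteins and uncoats clathrin vesicles, averaged 653 TPM, and Hsp90aa1, the HSP90 gene with the stronger heat response, averaged 367 TPM. These levels placed them 62nd, 89th and 197th of all genes. Hsph1, an HSP110 nucleotide exchange factor that works with HSC70 to dissolve aggregates, averaged 148 TPM, and Hspa5, the HSP70 of the ER lumen known as BiP, averaged 134 TPM. Rbm3 with 48.5 TPM, Cirbp with 46.6 TPM and Dnajb1, the HSP40 that delivers clients to HSP70, with 43.3 TPM lay close together. The strictly inducible HSP70 genes came last, with 5.35 TPM for Hspa1b and 5.24 TPM for Hspa1a. Within single libraries the order held in 36 of 36 for every neighbouring pair but 4. Hsph1 exceeded Hspa5 in 25 libraries, Rbm3 exceeded Cirbp in 20, Cirbp exceeded Dnajb1 in 21 and Hspa1b exceeded Hspa1a in 22, so these neighbours were not separated beyond their spread.

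Some of these levels depend on how reads were shared between near-identical sequences. Of all stretches of 50 bases, the read length used in the study, 66.3% of those in Hspa1a transcripts and 62.3% of those in Hspa1b transcripts also occur in another gene, most of them in the partner. Hspa1a took between 44.1% and 55.3% of the summed TPM of the pair, with a median of 49.6%, and the levels of the single genes are uncertain for that reason. Hspa1l, listed at 4.97 TPM, and Gm10501, at 2.88 TPM, each hold 7.95% of the Hspa1a stretches and 6.79% of the Hspa1b stretches. The sum of the pair can still depend on how reads were split with these genes. For Hspa8 the share was 39.4%, and genes that share them were listed at high levels, Gm15459 at 229.8 TPM, Gm8355 at 205 TPM and Gm6210 at 168 TPM. For Hsp90aa1 it was 47.5%, with 121 TPM listed for Gm5844. For Rbm3 it was 9.71%, with 32.5 TPM listed for Rbm3-ps, 29.1 TPM for Gm48583 and 20.4 TPM for Gm10156 beside 48.5 TPM for Rbm3. It was 3.44% for Hsp90ab1 and 0.412% for Dnajb1. Hspa5, Hsph1 and Cirbp shared none.

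**Figure D1:**
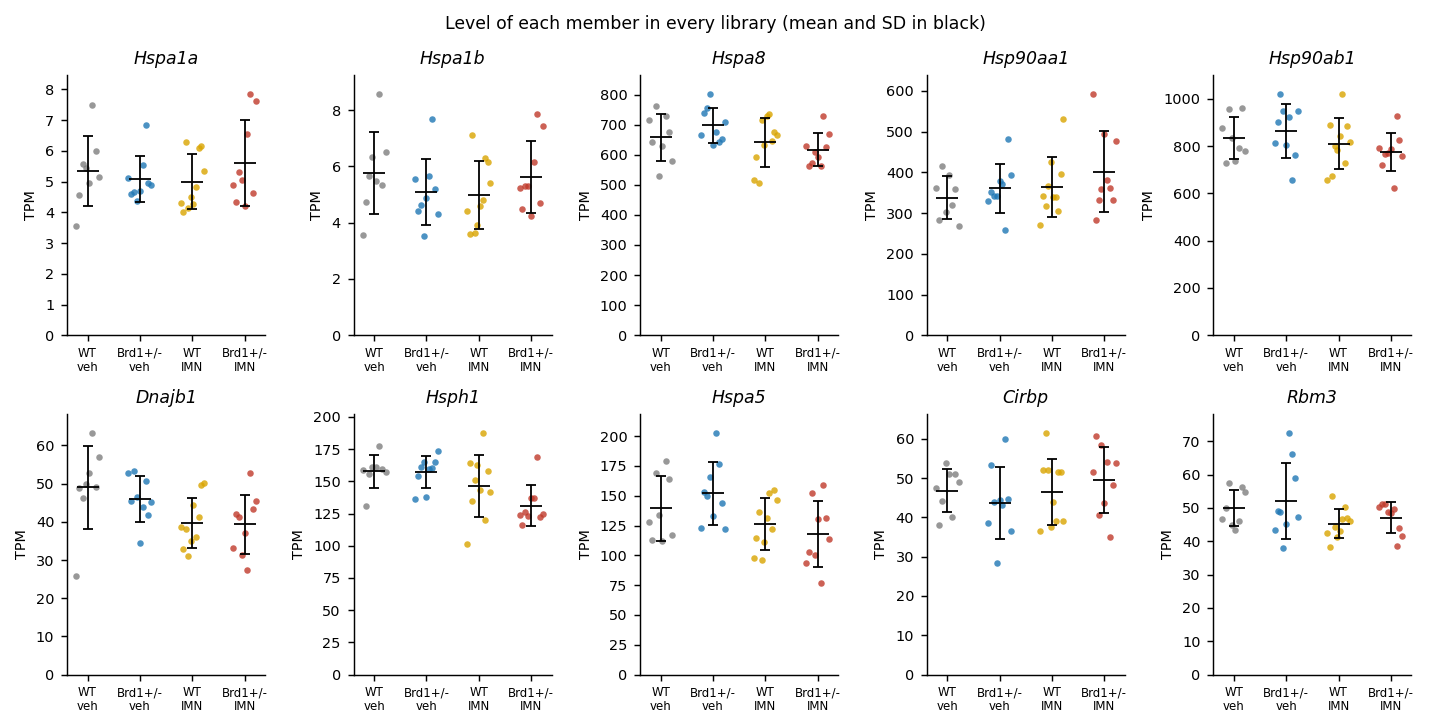
TPM of each of the 10 genes in every library, by group (veh, vehicle). Points are libraries and the black bars are the mean and SD of each group (n = 8, 9, 10 and 9 from left to right), with all axes starting at 0. The groups overlap for every gene, both IMN means lie below both vehicle means for Hsph1, Hspa5, Dnajb1, Hspa8, Hsp90ab1 and Rbm3, and WT vehicle 1 is the lowest Dnajb1 point at 25.8 TPM.

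Individual mice differed by moderate amounts. Over all groups together, the ratio of the highest to the lowest of the 36 libraries ran from 1.59 for Hspa8 to 2.64 for Hspa5. The SD of log2(TPM + 0.5) around the group means was 0.16 for Hspa8, 0.18 for Hsph1, 0.18 for Hsp90ab1 and 0.20 for Rbm3, which is larger than in 14.8%, 22.6%, 23.1% and 30.7% of the 17696 genes whose mean over all libraries reached 1 TPM. It was 0.25 for Hspa1a, 0.26 for Cirbp, 0.27 for Hsp90aa1, 0.28 for Dnajb1, 0.28 for Hspa5 and 0.30 for Hspa1b, against a median of 0.25 over those genes. The inducible genes were therefore not among the most variable genes of this tissue, with Hspa1b at the 64.3rd percentile. Single animals stood out across several members. Brd1+/- IMN 7 had the highest value of its group for 7 of the 8 chaperones and the lowest for both Cirbp and Rbm3. WT vehicle 6 had the highest value of its group for 5 of the 8 chaperones, and WT vehicle 1 the lowest for 3.

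The comparison of IMN with vehicle asks what differed with the drug, and with any change it made in swimming, among mice that all swam. With both genotypes together (limma with genotype as a covariate), 0 of the 10 members passed an adjusted p of 0.05, a level that 0.274% of the 25572 genes tested passed. At the nominal level of an unadjusted p under 0.01, 3 of the 10 members, Hsph1, Dnajb1 and Hspa5, were called and all 3 were lower with IMN. At that level 3.11% of all genes were called, and 1.94% were called and lower. At an unadjusted p under 0.05, Hspa8 and Rbm3 joined them, making 5 of 10 where 9.38% of all genes passed. The members were chosen with earlier results of these data known, so these counts describe them and do not test them as a set. Over the 10 members 7 differences were below 0, and their median was -0.10 on the log2 scale against -0.0023 over all genes tested. All 10 oligodendrocyte markers had pooled differences above 0, with a median of 0.41, and 0 of them passed the nominal level. With the oligodendrocyte and endothelial scores as covariates, 3 members passed the nominal level again, Hsph1, Dnajb1 and Rbm3 (-0.19, limma, p = 0.00871), while Hspa5 kept its difference, -0.26, and had p = 0.0139 (limma).

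Hsph1 had the smallest p. Its lowest, median and highest values were 131, 159 and 178 TPM in WT vehicle, 136, 160.3 and 174 TPM in Brd1+/- vehicle, 101, 147 and 187 TPM in WT IMN and 116, 124 and 169 TPM in Brd1+/- IMN. The Brd1+/- IMN group lay lowest, with 8 of its 9 libraries below the median of Brd1+/- vehicle, while the WT IMN group was wide and overlapped both vehicle groups. Pooled over genotypes the log2 fold change was -0.19 ± 0.06 (SE; 95% interval -0.31 to -0.07), or 0.874 times the vehicle level (limma, p = 0.00218, adjusted p = 0.169). Within Brd1+/- mice it was -0.27 ± 0.07 (limma, p = 0.000928, adjusted p = 0.488), and an exact permutation test of the same libraries gave p = 0.00226. In WT mice it was -0.12 ± 0.09 (limma, p = 0.212), with an interval of -0.32 to 0.07. Without Brd1+/- IMN 7, whose 169 TPM was far above the other 8 libraries of its group (116 to 137 TPM), the difference in Brd1+/- mice was -0.31 (limma, p = 2.34e-05, adjusted p = 0.150). The nominal call was kept in 36 of 36 pooled fits and in 18 of 18 fits within Brd1+/- mice that left out 1 library.

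Dnajb1 had lower values with IMN in both genotypes. Its lowest, median and highest values were 25.8, 49.5 and 63.2 TPM in WT vehicle, 34.3, 45.5 and 53.4 TPM in Brd1+/- vehicle, 31.1, 38.4 and 50.2 TPM in WT IMN and 27.4, 41.2 and 52.7 TPM in Brd1+/- IMN. Of the WT IMN libraries 8 of 10, and of the Brd1+/- IMN libraries 8 of 9, were below the median of the vehicle group of the same genotype. The pooled log2 fold change was -0.26 ± 0.09 (95% interval -0.44 to -0.08), or 0.835 times the vehicle level (limma, p = 0.00613, adjusted p = 0.264). It was -0.24 ± 0.11 in Brd1+/- mice (limma, p = 0.0451) and -0.28 ± 0.14 in WT mice (limma, p = 0.0535), with exact permutation p values of 0.0566 and 0.0712. This gene depended on WT vehicle 1, the lowest of all 36 libraries. Without it the pooled difference was -0.32 with an adjusted p of 0.0350 (limma), which passes the threshold, and the difference in WT mice was -0.41 (limma, p = 0.000565, adjusted p = 0.139). Without both WT vehicle 1 and Brd1+/- vehicle 6 the pooled adjusted p was 0.0406. The pooled nominal call was kept in 26 of 36 fits that left out 1 library, and without any of the other 10 (WT vehicle 5, 6 and 8, Brd1+/- vehicle 1 and 3, WT IMN 2 and 4, Brd1+/- IMN 1, 4 and 6) p lay between 0.01003 and 0.0133.

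Hspa5 had lower values mainly in Brd1+/- IMN mice. Its lowest, median and highest values were 112, 131 and 179 TPM in WT vehicle, 122, 150.1 and 203 TPM in Brd1+/- vehicle, 96.2, 127 and 155 TPM in WT IMN and 76.8, 114 and 159 TPM in Brd1+/- IMN. The vehicle and IMN groups overlapped widely in both genotypes. The pooled log2 fold change was -0.26 ± 0.09 (95% interval -0.45 to -0.08), or 0.834 times the vehicle level (limma, p = 0.00688, adjusted p = 0.278). It was -0.38 ± 0.13 in Brd1+/- mice (limma, p = 0.00864, adjusted p = 0.807, exact permutation p = 0.0145) and -0.14 ± 0.12 in WT mice (limma, p = 0.249). Brd1+/- vehicle 6 was its highest library, and without that library the pooled difference was -0.23 (limma, p = 0.0137) and that in Brd1+/- mice -0.33 (limma, p = 0.0196), neither of which passed the nominal level. Leaving out 1 library kept the call in 24 of 36 pooled fits and in 7 of 18 fits within Brd1+/- mice. The pooled call was lost, with p from 0.0112 to 0.0137, without WT vehicle 3, 6 or 7, Brd1+/- vehicle 4, 6 or 7, WT IMN 1 or 4, or Brd1+/- IMN 1, 2, 4 or 6. That in Brd1+/- mice was lost, with p from 0.0112 to 0.0196, without vehicle 2, 3, 4, 6, 7 or 8 or IMN 1, 2, 4, 6 or 9.

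Hspa8 and the HSP90 genes differed less. Hspa8 was 658 ± 78.4 TPM (SD, n = 8) in WT vehicle, 698 ± 58.1 (n = 9) in Brd1+/- vehicle, 641 ± 81.7 (n = 10) in WT IMN and 616 ± 54.6 (n = 9) in Brd1+/- IMN. In Brd1+/- mice its log2 fold change with IMN was -0.18 ± 0.06, with 8 of 9 IMN libraries below the vehicle median, and passed the nominal level (limma, p = 0.00979, adjusted p = 0.807, exact permutation p = 0.0072). This call was kept in 5 of 18 fits that left out 1 library and lost, with p from 0.0105 to 0.0225, without vehicle 1, 2, 3, 4, 6 or 9 or IMN 1, 2, 3, 4, 5, 6 or 8. Pooled it was -0.11 ± 0.05 (limma, p = 0.0478) and in WT mice -0.04 ± 0.09 (limma, p = 0.653). Hsp90ab1 ran from 624.5 to 1020.6 TPM over all libraries, with a pooled difference of -0.10 ± 0.06 (limma, p = 0.1004). Hsp90aa1 was 402 ± 98.9 TPM in Brd1+/- IMN and 361 ± 60.01 in Brd1+/- vehicle, and its pooled difference of 0.12 ± 0.09 did not pass either level (limma, p = 0.191, 95% interval -0.06 to 0.29).

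The inducible HSP70 genes did not move with the drug in a way the data could resolve. The sum of Hspa1a and Hspa1b does not depend on how reads were split within the pair. It had a lowest, median and highest value of 7.11, 11.3 and 16.1 TPM in WT vehicle, 7.91, 9.57 and 14.5 TPM in Brd1+/- vehicle, 7.63, 9.25 and 13.4 TPM in WT IMN and 8.44, 10.3 and 15.7 TPM in Brd1+/- IMN. The 4 ranges nearly coincided. The log2 difference of the sum between IMN and vehicle was 0.12 in Brd1+/- mice (exact permutation p = 0.351) and -0.14 in WT mice (exact permutation p = 0.325). Pooled over genotypes, limma gave 0.01 ± 0.09 for Hspa1a (p = 0.864, 95% interval -0.16 to 0.19) and -0.03 ± 0.10 for Hspa1b (p = 0.792, 95% interval -0.24 to 0.18). A pooled change of more than 0.24 in either direction lay outside both intervals. Larger changes within a genotype lay inside theirs. In limma the 95% interval of Hspa1b was -0.15 to 0.41 in Brd1+/- mice and -0.50 to 0.13 in WT mice. For Hspa1a it was -0.15 to 0.37 and -0.34 to 0.18.

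The cold-inducible genes did not pass the nominal level either. Cirbp had a lowest, median and highest value of 38.1, 48.2 and 53.7 TPM in WT vehicle, 28.4, 44.0 and 59.97 TPM in Brd1+/- vehicle, 36.5, 47.7 and 61.4 TPM in WT IMN and 34.9, 51.4 and 60.7 TPM in Brd1+/- IMN. Its pooled log2 fold change was 0.08 ± 0.08 (limma, p = 0.320, 95% interval -0.09 to 0.25), with 0.19 ± 0.13 in Brd1+/- mice and -0.02 ± 0.10 in WT mice. Rbm3 had a lowest, median and highest value of 43.2, 48.5 and 57.6 TPM in WT vehicle, 38.0, 48.9 and 72.5 TPM in Brd1+/- vehicle, 38.2, 45.2 and 53.5 TPM in WT IMN and 38.5, 48.8 and 51.2 TPM in Brd1+/- IMN. Its highest library was Brd1+/- vehicle 6. Its pooled log2 fold change was -0.13 ± 0.06 (limma, p = 0.0460, adjusted p = 0.518), and -0.10 without that library (limma, p = 0.0920). Pooled, the 2 genes had differences of opposite sign, and neither passed the nominal level. The signs were also opposite in Brd1+/- mice, where Rbm3 gave -0.12 ± 0.11, but in WT mice both were below 0, with -0.14 ± 0.07 for Rbm3. With the oligodendrocyte and endothelial scores as added covariates, pooled Rbm3 passed the nominal level (-0.19, limma, p = 0.00871) and Cirbp gave 0.03 ± 0.09. A part of body temperature in these values was not tested.

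**Figure D2:**
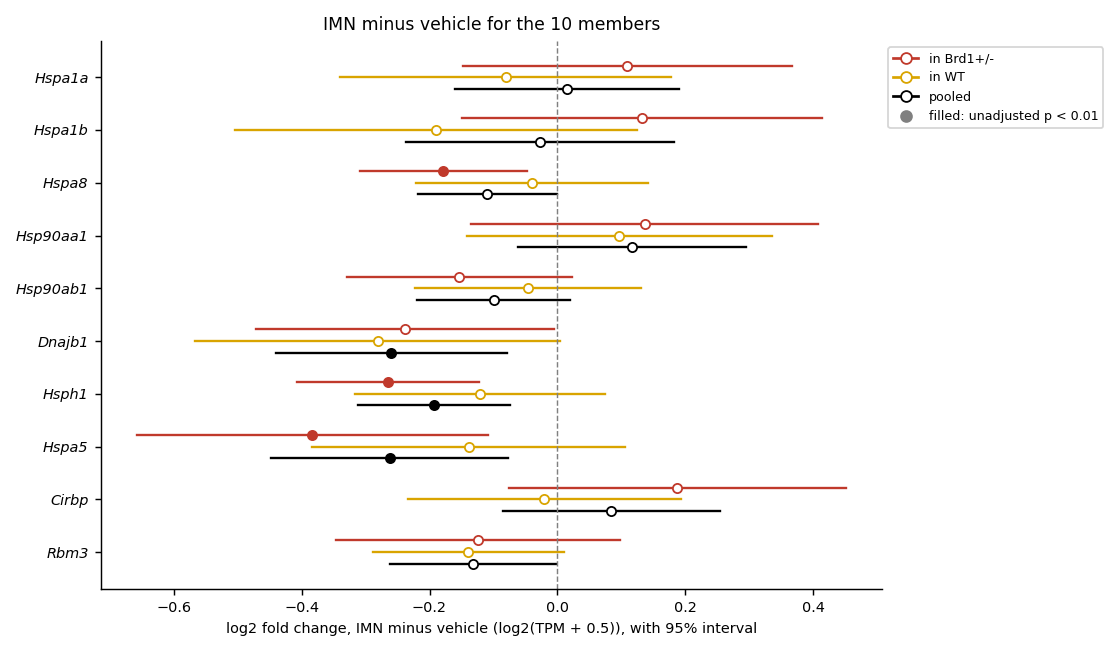
Log2 fold change of IMN minus vehicle on log2(TPM + 0.5) for each of the 10 genes, within Brd1+/- mice, within WT mice and pooled, with 95% intervals from limma. Filled points passed the nominal level of an unadjusted p under 0.01: Hsph1, Dnajb1 and Hspa5 pooled, and Hsph1, Hspa5 and Hspa8 in Brd1+/- mice, all below 0.

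Taken within genotypes, 3 of the 10 members (Hsph1, Hspa5 and Hspa8) passed the nominal level in Brd1+/- mice, all lower with IMN, where 1.22% of all genes were called and 0.551% were called and lower. An adjusted p of 0.05 was passed by 0 members there and by 0.00782% of all genes. In WT mice 0 members passed the nominal level, which 1.58% of all genes passed, and 0 members passed the adjusted level, which 0% of all genes passed, although 9 of the 10 differences were below 0. At an unadjusted p under 0.05 the counts were 4 of 10 in Brd1+/- mice, with Dnajb1 as the other, and 0 of 10 in WT mice, where 5.52% and 6.60% of all genes passed. The genotypes share no libraries in these comparisons. These counts too are a description, since the members were chosen with earlier results known. Whether IMN acted differently in the genotypes was tested by the interaction, in which 0 members passed the nominal level (0.547% of all genes did) or the adjusted level (0% did), and 0 had p under 0.05 (3.20% did). The smallest interaction p (limma) was 0.121, for Hspa1b, with a difference of 0.32 ± 0.20 between the IMN effects, and for Hspa5 and Hsph1 the interactions were -0.24 ± 0.18 (limma, p = 0.185) and -0.14 ± 0.12 (limma, p = 0.224). The larger values in Brd1+/- mice were therefore not shown to differ from those in WT mice.

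Reduced Brd1 expression alone came with no call among these genes. Brd1 itself passed the adjusted level only with the treatments pooled. With vehicle, the 10 log2 fold changes of Brd1+/- against WT mice ran from -0.16 (Hspa1b) to 0.13 (Hspa5), and 0 members passed the nominal level, which 0.700% of all genes passed, or the adjusted level, which 0% passed. With IMN they ran from -0.15 (Hsph1) to 0.16 (Hspa1b), again with 0 members at the nominal level (0.614% of all genes) and 0 at the adjusted level (0% of all genes). Pooled over treatments they ran from -0.08 (Hsph1) to 0.11 (Hsp90aa1), with 0 members called at the nominal level (0.731% of all genes) and 0 at the adjusted level (0.00391% of all genes). In each of the 3 genotype comparisons 0 members had a limma p under 0.05, before adjustment, and the smallest was 0.127. That level was passed by 3.75% of all genes with vehicle, 3.23% with IMN and 3.62% pooled. Over the 10 members the 95% limits of the pooled comparison lay between -0.22 (Dnajb1) and 0.29 (Hsp90aa1).

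Members were next compared from mouse to mouse, on values centred on the group mean so that group differences did not enter. Over a list of 14 relations and 3 added after the values were seen, p values came from 100000 permutations within groups and were adjusted over all 17. Hspa1a and Hspa1b varied together with r = 0.93 (Spearman 0.93, adjusted permutation p = 0.00017), where 0.00017 follows from the smallest p the draws can give, 1e-05, and part of their reads cannot be told apart. Their sum varied with Dnajb1, r = 0.55 (Spearman 0.47, permutation p = 0.00223, adjusted p = 0.00948), and r was 0.44 without WT vehicle 1 and Brd1+/- vehicle 6 (adjusted permutation p = 0.0533). No relation of the sum passed the threshold with Hsph1 (r = 0.13, adjusted permutation p = 0.539) or with Hspa8 (r = -0.05, adjusted permutation p = 0.829). The HSP90 genes gave r = 0.29 (adjusted permutation p = 0.156) and Hspa8 with Hsp90aa1 r = 0.33 (adjusted permutation p = 0.125). In the ER, Hspa5 and its HSP90 partner Hsp90b1 gave r = 0.59 (Spearman 0.55, permutation p = 0.00022, adjusted p = 0.00125), and 0.53 without the 2 libraries farthest from the median. Within groups that r was 0.41 in WT vehicle, -0.22 in Brd1+/- vehicle, 0.75 in WT IMN and 0.93 in Brd1+/- IMN, so its sign was not the same in all groups.

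Cirbp and Rbm3 gave r = 0.46 (Spearman 0.34, permutation p = 0.0105, adjusted p = 0.0358), and this rested on single libraries. Without Brd1+/- vehicle 4 and Brd1+/- IMN 7, the farthest from the median of Cirbp, r was 0.27 (permutation p = 0.156). The HSP70 sum against Cirbp gave r = 0.18 and against Rbm3 r = 0.28 (adjusted permutation p = 0.404 and 0.156), neither of which passed the threshold. Within groups, as a description, the sum and Rbm3 gave r = 0.89 in WT IMN and -0.69 in Brd1+/- IMN.

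**Figure D3:**
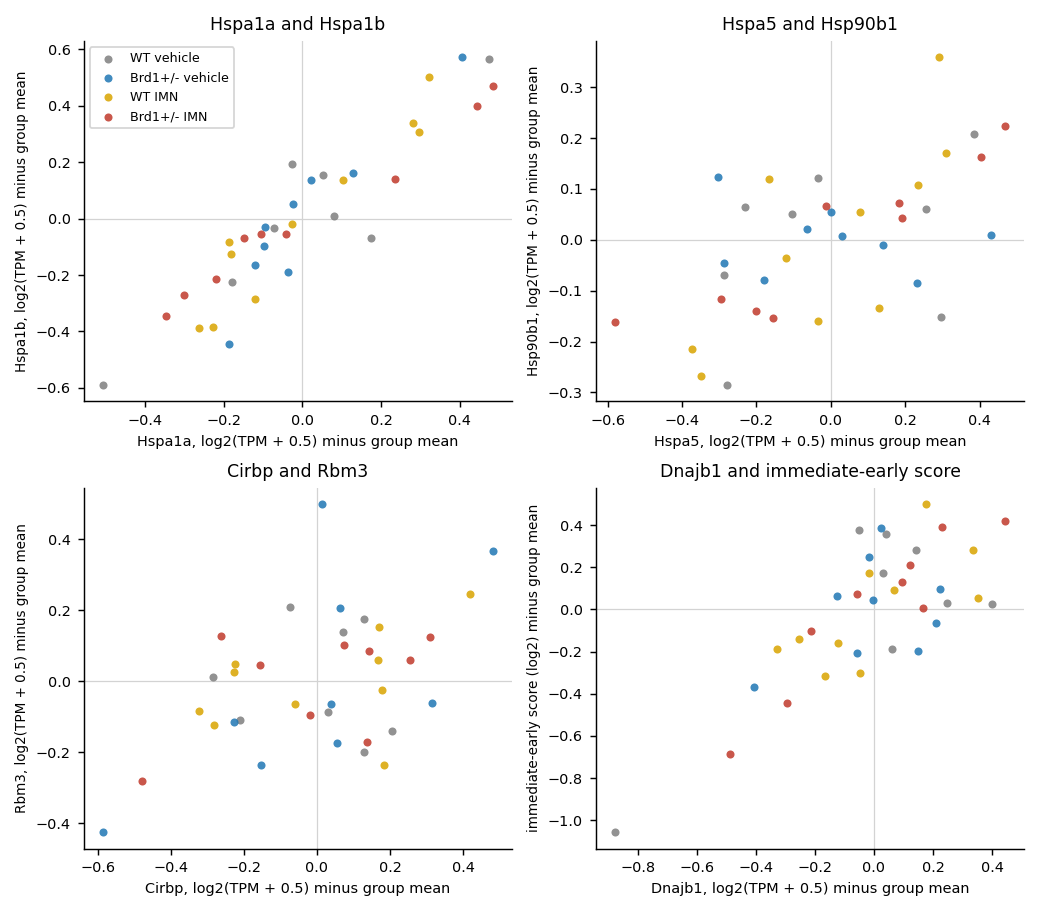
Group-centred log2(TPM + 0.5) of 4 pairs across the 36 libraries, 1 point per mouse, colored by group; the immediate-early score is the mean log2(TPM + 0.5) of 13 genes. Hspa1a with Hspa1b is the tightest (r = 0.93), Cirbp with Rbm3 the loosest (r = 0.46), and in the Dnajb1 panel the point at the lower left is WT vehicle 1.

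Immediate-early genes, which neurons switch on within minutes of activity, differed with treatment, and their score was compared from mouse to mouse with every member but Hsp90aa1 and Hsp90ab1, the HSP70 pair as a sum. All 13 such genes had pooled IMN differences below 0, 9 passed the nominal level and 3 passed the adjusted level: Npas4 (-0.94, limma, adjusted p = 0.00318), Egr1 (-0.66, adjusted p = 0.00939) and Arc (-0.67, adjusted p = 0.0108). Of all genes tested 3.11% passed the nominal level, 1.94% passed it and were lower, and 0.274% passed the adjusted level. This list was chosen with earlier results of these data known. The median score was 5.93 in WT vehicle, 5.85 in Brd1+/- vehicle, 5.30 in WT IMN and 5.37 in Brd1+/- IMN. Dnajb1 followed this score from mouse to mouse with r = 0.76 (Spearman 0.59, permutation p = 4e-05, adjusted p = 0.00034), a relation chosen after the values were seen. It was 0.54 without WT vehicle 1 and Brd1+/- IMN 6, and within groups it ran from 0.37 in Brd1+/- vehicle to 0.94 in Brd1+/- IMN. Hsph1 gave r = -0.01 and Hspa8 r = 0.30 (Spearman 0.40, adjusted permutation p = 0.156), relations also added after the values were seen. Without WT vehicle 1 and Brd1+/- vehicle 6, Hspa8 gave r = 0.48 and passed the threshold (adjusted permutation p = 0.0141). Neither Hspa5 (r = 0.33, adjusted permutation p = 0.155), the HSP70 sum (r = 0.19, adjusted permutation p = 0.404), Cirbp (r = -0.32, adjusted permutation p = 0.125) nor Rbm3 (r = -0.16, adjusted permutation p = 0.404) passed the threshold. With the score as a covariate, also chosen after seeing the values, the pooled IMN difference of Dnajb1 was 0.05 ± 0.08 (limma, p = 0.550), that of Hspa5 was -0.13 ± 0.11 (limma, p = 0.251) and that of Hsph1 was -0.20 ± 0.07 (limma, p = 0.0130). The difference of Hsph1 was as large as without the covariate and that of Dnajb1 was near 0, with 0 members at the nominal level. The score was itself lower with IMN and was chosen with its values known, so a smaller difference for a gene that follows it was built into this fit. What part immediate-early activity had in these differences was not tested.

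Other genes of the same pathways were read from lists of 24 heat-shock targets, 4 heat-shock factors or proteins that bind them, 19 cytosolic co-chaperones and 20 ER genes. Further lists held 6 mitochondrial chaperones and 12 cold-shock domain, RNA-binding and related genes. These lists too were chosen with earlier results known, and 3.11% of all genes passed the nominal level in the pooled IMN comparison. In the pooled IMN comparison 1 of the 24 heat-shock targets was called at the nominal level, Ier5, an immediate-early regulator of heat-shock factor 1, at -0.28 ± 0.09 (limma, adjusted p = 0.167), and the median of the list was -0.03. Ubb, a polyubiquitin gene and the most abundant of that list at 573 TPM, gave -0.05 ± 0.04. Hsf1, the heat-shock factor itself, was called at -0.13 ± 0.04 (adjusted p = 0.115), from 42.8 ± 2.42 TPM (n = 8) in WT vehicle and 38.8 ± 1.83 (n = 9) in Brd1+/- vehicle to 37.6 ± 2.44 (n = 10) in WT IMN and 36.8 ± 3.55 (n = 9) in Brd1+/- IMN. Hsf1 also passed the nominal level in the IMN comparison of WT mice (-0.18 ± 0.05, limma, p = 0.00173) and in the genotype comparison with vehicle (-0.14 ± 0.05, limma, p = 0.00984), 2 comparisons that share the WT vehicle libraries. Hsbp1, which binds heat-shock factor 1, gave -0.15 ± 0.06 (limma, p = 0.0182). In limma 0 of the 19 co-chaperones passed the nominal level and 1 had p under 0.05 (median -0.03), with Dnajc7 the most abundant at 148 TPM and -0.05 ± 0.04, and 0 of the 6 mitochondrial chaperones passed either level (median 0.03), with Hspa9 the most abundant at 115 TPM and 0.03 ± 0.04.

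Of the 20 ER genes 4 passed the nominal level, all lower with IMN, against 1.94% of all genes called and lower, and no difference between lists was tested. In the ER list 16 of 20 differences were below 0 and their median was -0.08 against -0.0023 over all genes. Sdf2l1, which keeps BiP clients soluble, gave -0.54 ± 0.14 (limma, adjusted p = 0.0901), with means of 12.5 and 11.6 TPM in WT and Brd1+/- vehicle and 9.71 and 6.87 TPM in WT and Brd1+/- IMN. Creld2, an ER stress-induced disulfide isomerase, gave -0.33 ± 0.09 (adjusted p = 0.119), Pdia4, an ER disulfide isomerase, -0.30 ± 0.09 (adjusted p = 0.145) and Manf, a secreted factor of the ER stress response, -0.28 ± 0.08 (adjusted p = 0.161). Calr, the calcium-binding lectin chaperone and the most abundant of the list at 278 TPM, gave -0.15 ± 0.06 (limma, p = 0.0110). Of the 6 genes of this list whose windows held the ER stress element, Creld2 was called at the nominal level and Calr, Canx, Dnajc3, Hsp90b1 and Pdia6 were not. Of the 11 cold-shock domain and related genes that passed the filter on low values, 1 was called, Ybx3, at -0.27 ± 0.07 (limma, adjusted p = 0.114). Ybx3 is a cold-shock domain protein that represses translation. Rtn3, the most abundant at 635 TPM, gave -0.01 ± 0.06 and is a reticulon, not an RNA-binding protein.

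**Figure D4:**
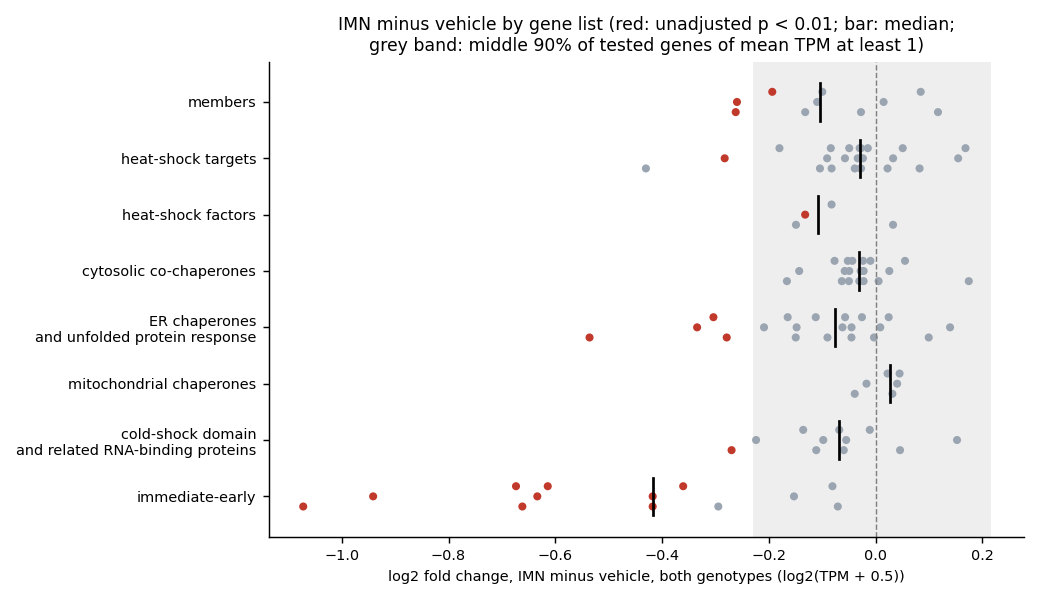
Pooled log2 fold change of IMN minus vehicle for the members and for each gene of the comparison lists. Red points passed an unadjusted p under 0.01, black bars are list medians and the grey band spans the 5th to 95th percentile, -0.23 to 0.21, of the 17696 tested genes that averaged 1 TPM or more. The immediate-early genes lie farthest from 0, with a median of -0.42, and the heat-shock targets center near 0.

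Genes with the most similar pattern over the 36 libraries were ranked by Pearson r of the group-centred values among the 17696 genes, as a description without a test. For Hspa5 the 5 closest were Pdia4 (r = 0.88), Calr (0.84), Dcakd (0.79), Creld2 (0.79) and Pdia3 (0.79), 4 of which were on the ER list. For the HSP70 sum they were Zfp598 (0.70), Vwa1 (0.70), Sh2b3 (0.70), 6230400D17Rik (0.70) and Dbx2 (0.68), with no chaperone among them. For Rbm3 they were Atp6v0e (0.71), Kctd7 (0.66), Nrros (0.65), Cercam (0.63) and Tgds (0.63), and for Cirbp, where r was lowest, Zfp961 (0.60), Pmaip1 (0.59), Alkbh2 (0.58), Gm10638 (0.58) and A2ml1 (0.58). Cirbp and Rbm3 were not among each other's 5 closest genes. The points of these correlations share libraries and their TPM scaling.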

How the data were processed

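RNA was taken from punches of the right aCC of 36 female mice, 1 library a mouse. The authors sequenced single-end reads of 50 bases on a BGISEQ-500, trimmed them with Trimmomatic, checked them with FastQC, aligned them to GRCm38 with HISAT2 2.1.0 and quantified Ensembl genes with StringTie 1.3.4, as the study's methods and the submitters' processing notes give it. The deposited table holds TPM, which the authors scaled to nearly the same total in each library (999727 to 999889), for 52636 genes, of which 52403 were matched to a symbol. The study's methods state a minimum number of reads for every library, but read counts were not used here, so the depth of each library is unknown and no counting interval is given, and the study's own count test gave way to a test on a log scale. Because TPM is a share of a library, a large change in abundant genes moves all others.

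The 10 members and all gene lists were chosen with earlier results of these data known. Values were analysed as log2(TPM + 0.5), on which fold changes of low genes are understated. A gene was kept where 8 or more of the 36 libraries reached 0.1 TPM (25572 genes). limma 3.58.1 (R 4.3.3; empirical Bayes with a mean trend, two-sided) was fitted to the whole table for 4 pairwise comparisons of groups, 2 pooled comparisons and the interaction, with Benjamini-Hochberg adjustment over all genes tested. Single members and the summed Hspa1a and Hspa1b were also compared by two-sided exact permutation tests, unadjusted, which enumerated 24310 to 92378 arrangements. Relations across libraries used values centred on group means and 100000 permutations within groups (numpy 2.4.6, scipy 1.17.1). A score is the mean log2(TPM + 0.5) of a marker list. The fits were tested on simulated data. From each list, genes with an unadjusted p under 0.01 in any comparison (at most 5) and the gene of highest mean are named. Sequences were taken from RefSeq promoter windows of GRCm38.p6, and near-identical stretches from the transcripts of the reference annotation. Alternatives were other pseudocounts, filters, scalings, covariates, a replicate block and leaving out libraries.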

Additional observations from a re-analysis of the deposited data

Results flagged for a closer look

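Within groups, 4 single values of the 10 genes lay farther from their group than the 95% limit of Dixon's test, out of 40 groups looked at, where chance flags about 1 group in 20. Hspa1a was 6.84 TPM in Brd1+/- vehicle 7, against 4.37 to 5.55 TPM in the other libraries of the group. Dnajb1 was 25.8 TPM in WT vehicle 1, against 46.2 to 63.2 TPM in the others, and this library also had the highest oligodendrocyte score and the lowest immediate-early score of its group, at 7.25 and 4.77 against group medians of 4.61 and 5.93. Hsph1 was 131 TPM in WT vehicle 2, against 156 to 178 TPM in the others. Hsph1 was 169 TPM in Brd1+/- IMN 7, against 116 to 137 TPM in the others, the library that was highest of its group for 7 of 8 chaperones and lowest for both Cirbp and Rbm3. The part that these scores had in the Dnajb1 value was not tested.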

How the results depend on the processing

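Other pseudocounts, filters, scalings and covariates kept the direction and the side of the threshold in 295 of 320 values of the members. Of the rest 18 lost and 2 gained the nominal level, and 5 changed sign. Only values at the nominal level in the main fits could lose it, and most of the 320 had no such call to lose. The cause of these changes was not tested. Under quantile normalization Hsp90ab1 and Cirbp in WT mice were 0.0061 and 0.011 (log2), and Hspa1a pooled was -0.012 without WT vehicle 1 and Brd1+/- vehicle 6, -0.015 with the oligodendrocyte and endothelial scores and -0.0017 with the replicate block. Members at the nominal level in Brd1+/- mice numbered 1 instead of 3 under quantile normalization, with mitochondrially encoded genes removed, without those 2 libraries, with those scores and with the replicate block. Hspa5 and Hspa8 were the calls lost, with log2 differences from -0.38 to -0.33 and from -0.18 to -0.12 under these 5 settings against -0.38 and -0.18. Members at that level numbered 1 instead of 3 pooled under quantile normalization and 1 instead of 0 in WT mice without the 2 libraries, where 1 member also passed the adjusted level pooled. Leaving out single libraries gave between 1 and 3 members in Brd1+/- mice, 0 and 1 in WT mice and 1 and 3 pooled, with between 0 and 1 pooled at the adjusted level. In Brd1+/- mice 1 was left without vehicle 2, 3, 4 or 6 or IMN 1, 2, 4 or 6, and pooled 1 was left without WT vehicle 6, WT IMN 4 or Brd1+/- IMN 1, 4 or 6. The ranges of 3 log2 differences crossed 0 in that way, from -0.067 to 0.015 for Cirbp in WT mice, from -0.018 to 0.051 for Hspa1a pooled and from -0.062 to 0.017 for Hspa1b pooled.

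With the immediate-early score as a covariate, an alternative chosen after seeing the data, 0 members passed the nominal level in Brd1+/- mice, in WT mice or pooled. The difference was then 0.067 for Dnajb1, 0.0053 for Hsp90ab1 and -0.046 for Cirbp in Brd1+/- mice, 0.023 for Dnajb1 and 0.052 for Hspa1a in WT mice, and 0.046 for Dnajb1, 0.037 for Hspa1b and -0.033 for Cirbp pooled. Over all genes the nominal count was 98, 79, 110 and 70 with vehicle, with IMN, pooled over treatments and for the interaction when only genes averaging 1 TPM or more were tested, against 179, 157, 187 and 140, and fewer genes were tested there. Without the 2 libraries it was 357 with vehicle and 790 for IMN in WT mice, against 404, and 262 there with the immediate-early score. Single libraries left out gave 143 to 383 genes with vehicle and 321 to 790 for IMN in WT mice. Genes at the adjusted level in the pooled IMN comparison numbered 70, and 164 without the 2 libraries, 37 with the replicate block, 11 with the immediate-early score and 35 to 170 with single libraries left out. Replicate numbers did not pair the libraries, since the median correlation of same-numbered libraries lay between -0.063 and -0.0021, so the block says nothing of an effect. Of the relations, r of the HSP70 sum was 0.44 with Dnajb1, 0.015 with Hspa8 and -0.037 with the immediate-early score without the 2 libraries. Without them the score gave 0.0042 with Hsph1 and 0.48 with Hspa8, and the relation with Hspa8 passed the threshold (adjusted permutation p = 0.0141). Cirbp and Rbm3 gave 0.27 without the 2 farthest libraries and 0.36 when values were not centred, which also gave 0.49, 0.085, 0.29 and 0.42 for Hspa5, Rbm3, Hsph1 and Hspa8 with the score. The unknown depth limits the precision of the low genes, Hspa1a and Hspa1b.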
